A study of Mus musculus with 45 samples.

Results

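The genes described here encode peptidases and amino acid or peptide carriers of the brush border, the microvillus membrane that enterocytes turn towards the gut lumen. They are Anpep, Dpp4, Enpep, Mep1a, Mep1b, Slc15a1, Slc6a19, Ace and Xpnpep2, and they were chosen by name as 9 of the 47729 genes in the tables. All 9 were among the 14020 genes tested, each of which exceeded 5 reads in 6 or more of the 45 libraries. Each library was made from tuft cells of 1 male C57BL/6J mouse, sorted from 20 cm of the small intestine as EpCAM+ and Siglec-F+ events. The study's methods give the sorted events as CD45+ but also state that cells with CD45 were excluded. The CD45 gate is therefore not settled here. The mice were 5 weeks old on arrival, received chow for 1 week and were housed at 30°C, and no genetic change is given for any of them. The control mice were then given RFD, whose energy is 10% fat, and the others HFD, whose energy is 60% fat. The 9-week set holds 11 RFD and 11 HFD libraries, and the 22-week set holds 11 RFD and 12 HFD libraries. The labels give 9 weeks for all libraries and the study's methods give 9 and 22 weeks. The second set of libraries was taken as the 22-week mice, so set and time cannot be told apart.

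Digestion of dietary protein is finished at the brush border. Membrane peptidases trim peptides from their amino end, their carboxyl end or within the chain, the proton-coupled carrier PEPT1 takes up short peptides, and sodium-coupled carriers such as B0AT1 take up free amino acids. These proteins are abundant in absorptive enterocytes, whereas tuft cells are a rare chemosensory cell type of the same epithelium that is known for taste signalling, prostanoid and leukotriene synthesis and release of IL-25. In bulk libraries, fewer cells of a type and less RNA per cell cannot be told apart.

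A library held between 189340 and 4690213 reads on genes, and 2 libraries, both at 9 weeks, had fewer than 500000. The 15 tuft cell markers were measured in all 4 groups, and Pou2f3, the transcription factor that defines the lineage, had at 9 weeks a median of 158 CPM on RFD beside 43.3 CPM on HFD. CPM are read counts scaled to library sizes that were first adjusted by the TMM method. A CPM value is therefore not a share of all reads of its library. Summed over the 15 genes, tuft marker CPM ranged from 3003 to 19430 on RFD and from 254 to 17940 on HFD at 9 weeks, and from 2859 to 17570 and from 836 to 17570 at 22 weeks. The lowest value belonged to mouse 80 on HFD at 9 weeks, in which 5 Paneth cell markers took 28.4% of all reads. None of the 15 tuft markers had an adjusted p under 0.1 at either time (edgeR's quasi-likelihood test, adjusted by the Benjamini-Hochberg method, as are all adjusted p of diet below). Of them 8 at 9 weeks and 3 at 22 weeks had an unadjusted p under 0.05, all with lower fitted values on HFD.

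The promoters of Slc15a1 and Mep1a are shown because these genes had the lowest and the highest fitted diet difference of the 9 at 9 weeks. Each stretch runs 5′ to 3′ from 250 bases before to 50 bases after the annotated start in RefSeq on build GRCm38.p6, and capitals mark matches to the motifs searched. The Slc15a1 stretch lies at chr14:121505205-121505504 and the Mep1a stretch at chr17:43502724-43503023, both on the minus strand.
Slc15a1: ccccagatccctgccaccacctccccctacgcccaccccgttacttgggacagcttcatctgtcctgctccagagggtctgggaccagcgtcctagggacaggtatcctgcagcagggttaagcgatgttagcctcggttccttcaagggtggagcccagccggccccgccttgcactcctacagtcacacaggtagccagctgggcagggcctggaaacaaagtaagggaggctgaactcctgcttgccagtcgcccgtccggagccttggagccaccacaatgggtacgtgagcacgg
Mep1a: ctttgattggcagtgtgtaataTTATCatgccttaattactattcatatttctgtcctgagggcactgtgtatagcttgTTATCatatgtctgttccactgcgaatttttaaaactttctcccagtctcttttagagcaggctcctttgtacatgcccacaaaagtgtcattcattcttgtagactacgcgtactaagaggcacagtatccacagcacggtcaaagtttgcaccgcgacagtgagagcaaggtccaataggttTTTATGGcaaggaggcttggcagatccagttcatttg

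The motifs were those of factors that are known to act in intestinal epithelium, searched on both strands, and no matches overlapped in the windows of the 9 genes. They were CAAAGNCCA for HNF4, GTTAAT for the core of an HNF1 site, TTTATNG for CDX and GATAA for GATA factors. The Slc15a1 window held no match and was 62.7% G or C. The Mep1a window was 42.3% G or C and held GATA matches that began 228 and 171 bases before the start, both on the opposite strand, and a CDX match inside the transcribed part. RefSeq windows were found for 8 of the 9 genes, with 2 windows for Ace. Among these 9 windows, GATA matches were present in those of Dpp4, Enpep and Mep1a, and CDX matches in those of Dpp4 and Mep1a. Over all 32851 windows of this length, 25.4% held the GATA letters, 10.9% the CDX letters, 7.1% the HNF1 letters and 1.98% the HNF4 letters.

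The 9 transcripts were present in both diets at both times. At 9 weeks, Slc15a1 was 2.73-fold lower on HFD than on RFD and was the only 1 of the 9 genes that passed an adjusted p under 0.1, where 3.32% of all genes tested passed and 1.33% passed with lower levels on HFD. Mep1a had a fitted level 2.03-fold that of RFD and did not pass. None of the 9 passed at 22 weeks with edgeR, DESeq2 or limma, where 0.792% of all genes did with edgeR. The median fitted log2 fold change of the 9 genes was -0.04 at 9 weeks and -0.02 at 22 weeks, beside -0.05 and -0.03 over all genes tested.

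Slc15a1 (ENSMUSG00000025557, chr14:121459621-121505252 on the minus strand) encodes PEPT1, the proton-coupled carrier of short peptides. Its level at 9 weeks ran from 7.78 CPM over a median of 40.5 to 71.0 CPM in the 11 RFD libraries, and from 2.25 over 12.1 to 29.9 CPM in the 11 HFD libraries. All 11 HFD libraries lay below the RFD median and 4 lay below every RFD library, while the ranges of the 2 diets overlapped. The lowest library of each diet held 1 and 2 Slc15a1 reads. On the log2 scale the change was -1.45 (SE 0.39), with an adjusted p of 0.0662. At 22 weeks the RFD libraries ran from 30.1 over 68.5 to 158 CPM and the HFD libraries from 9.92 over 50.5 to 147 CPM. Of the 12 HFD libraries 10 lay below the RFD median and 4 below every RFD library, and the log2 fold change of -0.74 (SE 0.34, p = 0.0362, adjusted p = 0.455) did not pass.

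The labels number the mice in 3 runs (1 to 8, multiples of 10, and 21 to 64), which served as a check for a batch and are given in that order as series. Mouse 84 on RFD at 9 weeks and mouse 65 on HFD at 22 weeks are in none of the 3 and were left out of every value within series and of the fit with the series as a term. Within them the HFD minus RFD difference of mean log2 CPM of Slc15a1 was -1.30, -0.78 and -1.71 at 9 weeks and -0.55, -1.54 and -0.76 at 22 weeks. It was below 0 in all 3 series at both times, and the 22-week values leave out mouse 65, which had the highest Slc15a1 level of the HFD libraries at that time (147 CPM). With the series as a term in the fit, the 9-week log2 fold change was -1.26 and the adjusted p 0.109. Without the library of mouse 80, which stands apart by its low tuft markers, it was -1.37 with an adjusted p of 0.128. With the tuft marker mean as a covariate it was -0.97 with an adjusted p of 0.617, and this mean was 8.10 (SD 1.12, n = 11) on RFD and 6.76 (SD 1.67, n = 11) on HFD. Its part in the result was not tested. The difference between the 2 times was 0.77 on the log2 scale (SE 0.52, adjusted p = 1.0 in the interaction test), so a different response at 9 and 22 weeks was not shown.

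Slc6a19 (ENSMUSG00000021565, chr13:73679745-73704865 on the minus strand) encodes B0AT1, the sodium-coupled carrier of neutral amino acids. At 9 weeks it ran from 5.11 over 43.3 to 92.6 CPM on RFD and from 8.88 over 29.4 to 50.2 CPM on HFD, with 10 of 11 HFD libraries below the RFD median. The log2 fold change of -0.55 (SE 0.36, adjusted p = 0.438) did not pass. At 22 weeks the values ran from 39.6 over 86.3 to 566 CPM on RFD and from 31.7 over 64.2 to 259 CPM on HFD, and 7 of 12 HFD libraries lay below the RFD median. The fitted difference was -0.84 on the log2 scale (SE 0.40, p = 0.0444, adjusted p = 0.475), and it was -0.43 without mouse 3 on RFD and mouse 6 on HFD, which stood apart by their marker levels. Mouse 3 held the highest Slc6a19 value of all libraries. The span of the antisense gene Slc6a19os overlaps that of this gene, and the libraries do not mark strand. Whether the 2 share exons, and so reads, was not examined, and no Slc6a19 count was fractional.

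**Figure D1:**
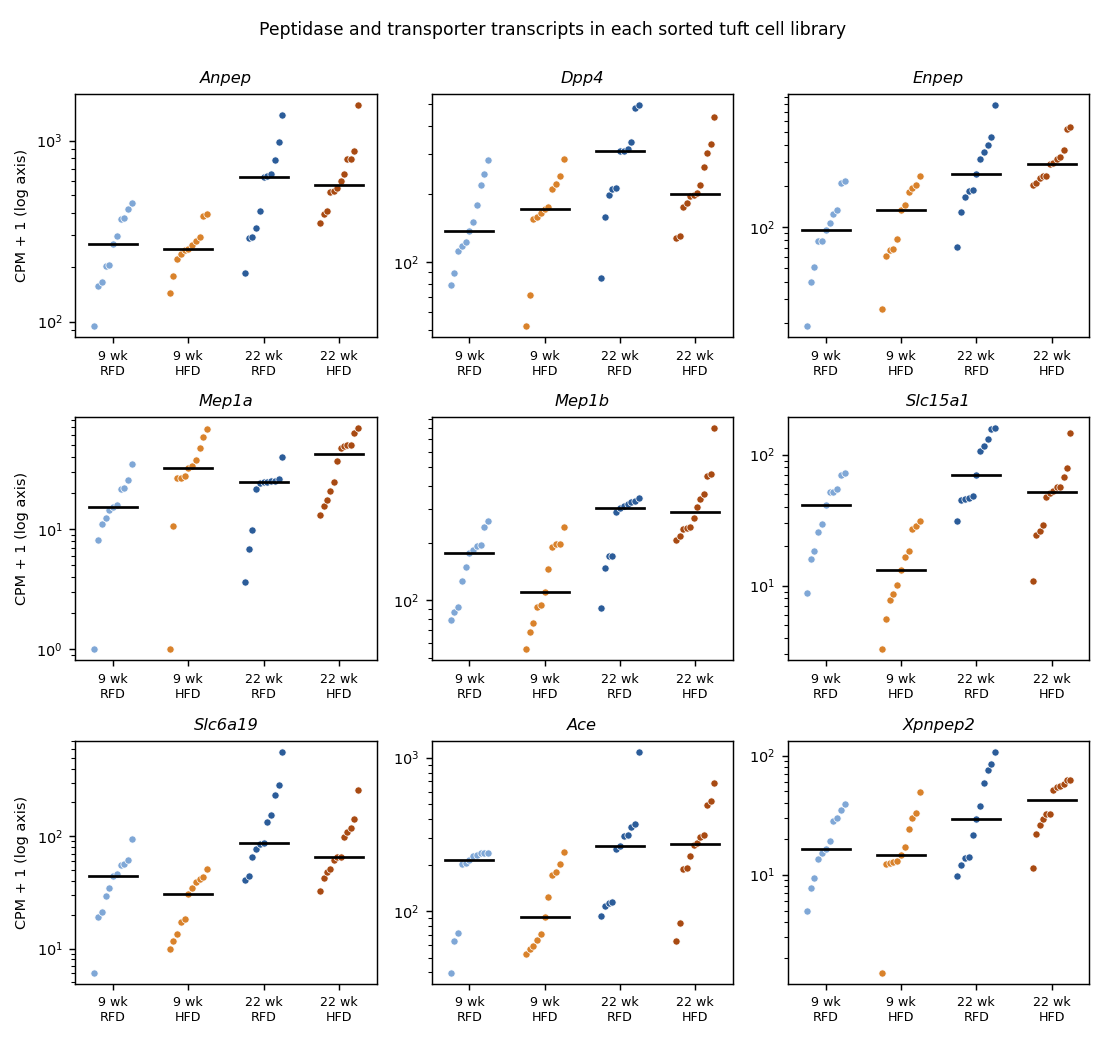
Level of each of the 9 genes in every library, as CPM plus 1 on a log axis, for the 4 groups of 11, 11, 11 and 12 libraries. Each point is 1 mouse, points are sorted by value within a group, and the black line is the group median. For Slc15a1 all 11 HFD libraries at 9 weeks sit below the RFD median of 40.5 CPM.

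The meprins are secreted and membrane-bound metalloproteases that cut within peptide chains, and Mep1a and Mep1b encode their alpha and beta subunits. Mep1a (ENSMUSG00000023914, chr17:43474324-43502812 on the minus strand) was the rarest of the 9 by total reads, with 2400 reads over the 45 libraries. At 9 weeks it ran from 0 over 14.4 to 33.7 CPM on RFD and from 0 over 31.2 to 66.7 CPM on HFD, and 1 library of each diet had no read. In 9 of 11 HFD libraries the level was above the RFD median, and in 4 it was above every RFD library. This gave a log2 fold change of 1.02 (SE 0.45), with p = 0.0314 and an adjusted p of 0.229. At 22 weeks it ran from 2.63 over 23.4 to 39.0 CPM on RFD and from 12.2 over 41.2 to 67.8 CPM on HFD, with 8 of 12 HFD libraries above the RFD median and 6 above every RFD library. Here the log2 fold change was 0.88 (SE 0.35), with p = 0.0174 and an adjusted p of 0.36.

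Neither Mep1a difference passed the adjusted threshold. Within the 3 series the difference of mean log2 CPM was 1.71, 2.31 and -1.18 at 9 weeks and 1.11, 1.31 and 0.68 at 22 weeks, so 1 series at 9 weeks went the other way. That series holds mouse 64 on HFD, 1 of the 2 libraries with no Mep1a read. Mep1b (ENSMUSG00000024313, chr18:21061923-21100199 on the plus strand) had 19436 reads in all. Its fitted difference on the log2 scale was -0.27 (SE 0.27, adjusted p = 0.633) at 9 weeks and 0.41 (SE 0.23, p = 0.0835, adjusted p = 0.553) at 22 weeks. Its medians on RFD and HFD were 175 and 110 CPM at 9 weeks and 303 and 288 CPM at 22 weeks. The difference between the times was 0.72 (SE 0.36, p = 0.0496), and with adjustment over all genes it was not past the threshold (adjusted p = 1.0).

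Of the 14020 genes, 0.0% passed the interaction test between diet and set at an adjusted p under 0.1 in edgeR, DESeq2 passed none either, and 3.22% had an unadjusted p under 0.05, and Mep1b was the only 1 of the 9 genes among the latter. At an unadjusted p under 0.05, 2 of the 9 genes (Slc15a1 and Mep1a) differed between diets at 9 weeks, where 18.0% of all genes did, and 3 of the 9 (Mep1a, Slc6a19 and Slc15a1) at 22 weeks, where 10.3% did. For Mep1a and Slc15a1 the fitted direction was the same at both times. The 2 times used different mice and different controls.

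The aminopeptidases take single residues from the amino end. Anpep (ENSMUSG00000039062, chr7:79821803-79861059 on the minus strand), which encodes aminopeptidase N with a broad preference for neutral residues, was the most abundant of the 9 genes. It ran from 93.4 over 268 to 448 CPM on RFD and from 143 over 252 to 393 CPM on HFD at 9 weeks, and from 183 over 625 to 1383 CPM and from 350 over 570 to 1570.0 CPM at 22 weeks. The ranges of the diets overlapped almost entirely, and the log2 fold changes were -0.04 (SE 0.24, adjusted p = 0.955) and 0.15 (SE 0.28, adjusted p = 0.903).

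Enpep (ENSMUSG00000028024, chr3:129269175-129332720 on the minus strand) encodes aminopeptidase A, which removes acidic residues and is known for cutting angiotensin II. Its medians on RFD and HFD were 93.6 and 132 CPM at 9 weeks and 245 and 290.1 CPM at 22 weeks, and its log2 fold changes were 0.30 (SE 0.37) and 0.07 (SE 0.27). Xpnpep2 (ENSMUSG00000037005, chrX:48108725-48136981 on the plus strand) encodes the membrane form of aminopeptidase P, which cuts before proline. Its medians were 15.6 and 13.5 CPM at 9 weeks and 28.4 and 41.1 CPM at 22 weeks, with log2 fold changes of 0.06 (SE 0.44) and -0.04 (SE 0.38). At 9 weeks 1 library of each diet had fewer than 3 Xpnpep2 reads.

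Dpp4 and Ace remove pairs of residues, Dpp4 (ENSMUSG00000035000, chr2:62330073-62412231 on the minus strand) from the amino end after proline or alanine and Ace (ENSMUSG00000020681, chr11:105967945-105989964 on the plus strand) from the carboxyl end. Dpp4 encodes dipeptidyl peptidase 4, which also inactivates incretin hormones. Its level at 9 weeks ran from 78.2 over 136 to 280.4 CPM on RFD and from 51.0 over 170 to 283 CPM on HFD, and the fitted difference was 0.17 (SE 0.26) with an adjusted p of 0.788. At 22 weeks it ran from 83.6 over 309 to 493 CPM on RFD and from 126 over 199 to 436 CPM on HFD, and 10 of 12 HFD libraries lay below the RFD median, with a fitted difference of -0.31 (SE 0.24) and an adjusted p of 0.712. Ace encodes angiotensin-converting enzyme. On RFD at 9 weeks it ran from 38.9 over 215 to 240.0 CPM and on HFD from 51.6 over 91.1 to 243 CPM. There 10 of 11 HFD libraries lay below the RFD median and 1 lay above every RFD library, and the log2 fold change of -0.58 (SE 0.32, p = 0.0779, adjusted p = 0.343) did not pass. At 22 weeks the Ace medians were 265 CPM on RFD and 274 CPM on HFD, with a log2 fold change of -0.02 (SE 0.38). The spans of antisense genes overlap those of Dpp4 and Ace, and whether they share exons, and so reads, was not examined. Anpep is also overlapped by Gm44974 on the same strand, and Enpep and Mep1b by the pseudogenes Gm42628 and Gm6378 on the other strand.

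**Figure D2:**
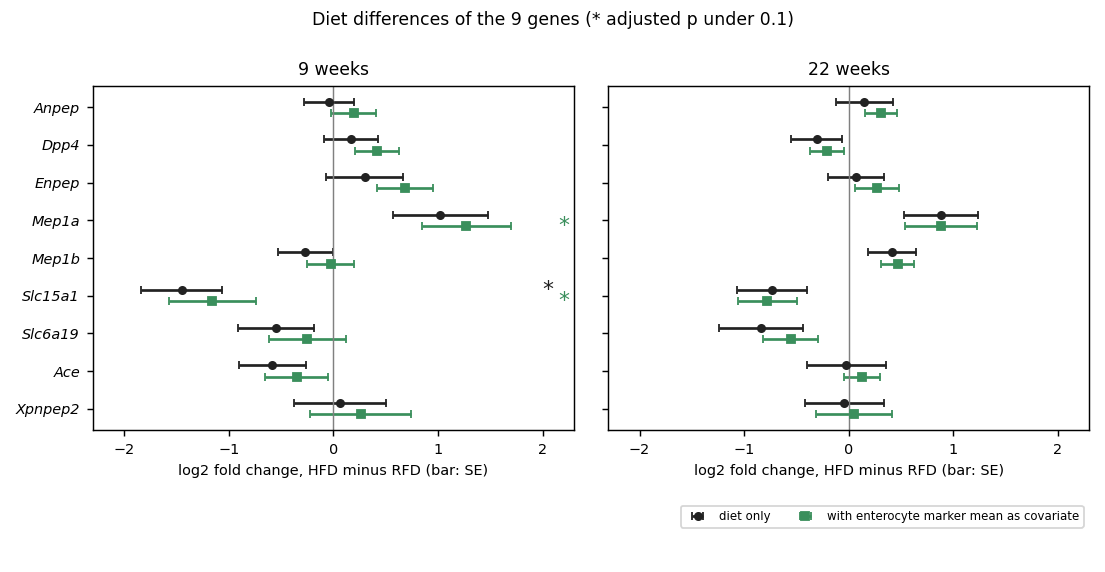
Fitted log2 fold change between HFD and RFD of the 9 genes at 9 weeks (left) and 22 weeks (right), with bars of 1 SE. Black circles are the fit on diet alone and green squares the fit with the enterocyte marker mean as a covariate, and a star marks an adjusted p under 0.1, which Slc15a1 reached in both fits and Mep1a in the second fit at 9 weeks only.

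Levels can be compared between genes per transcript length as TPM, a measure scaled for transcript length, here as the mean of log2(TPM + 1) over the libraries of a group. Anpep was first and Mep1b second in all 4 groups. Their means were 5.84 (SD 0.92) and 5.71 (SD 0.81) on RFD at 9 weeks, 5.75 (SD 0.90) and 5.27 (SD 1.17) on HFD at 9 weeks, 7.21 (SD 0.89) and 6.72 (SD 0.70) on RFD at 22 weeks, and 7.44 (SD 0.72) and 7.14 (SD 0.68) on HFD at 22 weeks. Dpp4, Ace and Enpep followed in positions that changed between groups. Slc15a1, Slc6a19, Xpnpep2 and Mep1a filled the lowest positions in every group.

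Slc15a1 held position 6 of the 9 on RFD at 9 weeks, with a mean of 3.19 (SD 1.10), and the last on HFD, with 1.99 (SD 0.92). Mep1a was last on RFD at 9 weeks, with 2.17 (SD 0.88), and at position 6 on HFD, with 2.82 (SD 1.28). Neighbours in the order were compared in a paired exact sign-flip permutation test, two-sided, with adjustment over the 32 pairs. On RFD at 9 weeks Slc15a1 and Slc6a19 differed by 0.07 (adjusted p = 0.804, exact permutation test), and Xpnpep2 and Mep1a by 0.15 (adjusted p = 0.63, exact permutation test). On HFD at 9 weeks the 4 lowest genes, Mep1a, Slc6a19, Xpnpep2 and Slc15a1, did not differ beyond the spread where 2 of them were neighbours, with differences of 0.16, 0.41 and 0.26 (adjusted p = 0.594, 0.241 and 0.356, exact permutation test). Ace, the next gene above them, stood 1.23 above Mep1a in 10 of 11 libraries (adjusted p = 0.0117, exact permutation test). Anpep and Mep1b differed in 3 of the 4 groups, and on RFD at 9 weeks their difference of 0.13 did not pass (adjusted p = 0.356, exact permutation test). At 22 weeks on HFD, Mep1b stood 1.01 above Enpep in 12 of 12 libraries and Dpp4 stood 1.17 above Slc6a19 in 12 of 12 libraries, both with adjusted p = 0.00781 in the exact permutation test.

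**Figure D3:**
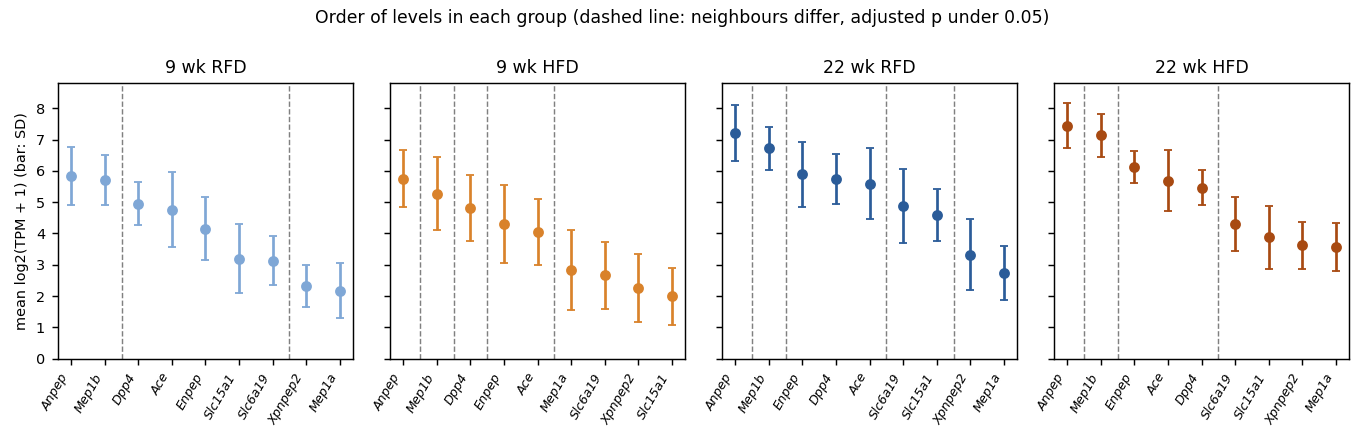
Mean log2(TPM + 1) of the 9 genes in each of the 4 groups, ordered from high to low, with bars of 1 SD over 11, 11, 11 and 12 libraries. A dashed line separates neighbours whose paired difference had an adjusted p under 0.05. Slc15a1 is at position 6 on RFD and last on HFD at 9 weeks.

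Levels of the 9 genes varied widely between mice of 1 group. Their summed CPM ran from 482 over 938 to 1650.0 on RFD and from 478 over 961 to 1399 on HFD at 9 weeks, and from 629 over 1987 to 4704 and from 1162 over 1771 to 4503 at 22 weeks. The highest sums belonged to mouse 3 on RFD and mouse 65 on HFD at 22 weeks, and the lowest to mouse 64 on HFD at 9 weeks. As a share of all reads, the 9 genes took a median of 0.0853% on RFD and 0.0907% on HFD at 9 weeks and 0.203% in both diets at 22 weeks.

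Enterocyte RNA was measured in the same libraries with 17 markers that hold none of the 9 genes, such as the alkaline phosphatase Alpi, the sugar hydrolases Sis, Lct, Treh and Mgam, and the apolipoproteins Apoa1 and Apoa4. None of the 17 was at 0 in all libraries of a group. Their summed CPM ran from 7554 over 14300.0 to 22090.0 on RFD and from 7552 over 11330.0 to 32620.0 on HFD at 9 weeks, and from 10940.0 over 21820.0 to 44100.0 and from 13310.0 over 23090.0 to 45440.0 at 22 weeks. The mean of their log2 CPM was 8.28 (SD 0.61, n = 11) on RFD and 7.83 (SD 0.83, n = 11) on HFD at 9 weeks, and 9.03 (SD 0.78, n = 11) and 8.97 (SD 0.59, n = 12) at 22 weeks. Diet moved single enterocyte markers in both directions. At 9 weeks 3 of the 17 passed an adjusted p under 0.1, with Rbp2, a retinol binding protein, higher (log2 fold change 1.32) and Apoc3 and Mgam lower (-1.56 and -1.50) on HFD. At 22 weeks 4 passed, with Rbp2 and Mttp, the lipid transfer protein of chylomicron assembly, higher (1.58 and 1.04) and Mgam and Slc5a1, the glucose carrier SGLT1, lower (-1.32 and -1.36).

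Levels of the 9 genes were then set against this enterocyte mean over the libraries of a set, after group means were subtracted. At 9 weeks (n = 22) Pearson's r was above 0 for all 9 genes, with a median of 0.636 beside 0.12 over all genes tested. It had an adjusted p under 0.1 for Anpep, Dpp4, Enpep, Mep1a and Mep1b, while 4.31% of all genes passed with r above 0. At 22 weeks (n = 23) the median r was 0.749 beside -0.16 over all genes, and Anpep, Dpp4, Enpep, Mep1b, Slc6a19 and Ace passed, while 1.39% of all genes passed with r above 0. By Spearman's rho, Dpp4 (rho 0.636, permutation p = 0.00195, adjusted p = 0.106) and Mep1a did not pass at 9 weeks, while Ace did. Enpep did not pass by rho at 22 weeks (rho 0.57, permutation p = 0.00762, adjusted p = 0.31). The points share libraries and a scaling to library size, and genes of a library are not independent replicates. All genes tested include the markers that form the mean, so the shares that passed and the ranks hold them too. The same is true of the tuft marker mean below.

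Ace had the highest value at 22 weeks, where its r of 0.936 (Spearman's rho 0.865, each with permutation p = 1e-05, the smallest that 100000 permutations can give, and adjusted p = 0.00216 and 0.00369) was at rank 5 among the 14020 genes. The r was 0.949 without the 2 libraries farthest from the median enterocyte level and 0.959, 0.922 and 0.895 within the 3 series. At 9 weeks r was 0.537 for Ace (rho 0.663, permutation p = 0.0105 and 0.00164, adjusted p = 0.138 and 0.0974), and within the series it was 0.802, 0.922 and -0.53, so the relation did not hold in the third. Anpep had r = 0.636 (rho 0.657, permutation p = 0.00067 and 0.00118, adjusted p = 0.0388 and 0.0844) at 9 weeks and 0.874 (rho 0.824, permutation p = 1e-05 for each, adjusted p = 0.00216 and 0.00369) at 22 weeks. Its r without the 2 farthest libraries was 0.615 and 0.83, and it was above 0 in all 3 series at both times.

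Slc15a1 had r = 0.447 (rho 0.416, permutation p = 0.044 and 0.0633, adjusted p = 0.249 and 0.376) at 9 weeks and 0.54 (rho 0.545, permutation p = 0.00847 and 0.0102, adjusted p = 0.201 and 0.337) at 22 weeks. Without the 2 farthest libraries its r was 0.683 and 0.399. Mep1a had r = 0.682 (rho 0.542, permutation p = 0.00064 and 0.0123, adjusted p = 0.038 and 0.234) at 9 weeks and 0.123 (rho 0.203, permutation p = 0.594 and 0.36) at 22 weeks. Xpnpep2 had the lowest r at 9 weeks, 0.176, and an r of 0.278 at 22 weeks. On log2(TPM + 1) at 9 weeks r was higher, at 0.524 for Xpnpep2, 0.717 for Slc15a1 and 0.756 for Slc6a19, which had 0.439 on log2 CPM. The median of the 9 genes was then 0.756 beside 0.333 over all genes tested, and at 22 weeks it was 0.776 beside -0.03. Differences between these r values were not tested. Over all 9 genes, r without the 2 farthest libraries ran from 0.331 to 0.683 at 9 weeks and from -0.06 to 0.949 at 22 weeks. Within series, r was above 0 in all 3 for 5 genes at 9 weeks (Anpep, Enpep, Mep1a, Mep1b and Slc15a1). Dpp4 had -0.098 in the first series at 9 weeks. At 22 weeks r was above 0 in all 3 for 6 genes (Anpep, Dpp4, Enpep, Mep1b, Slc6a19 and Ace).

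**Figure D4:**
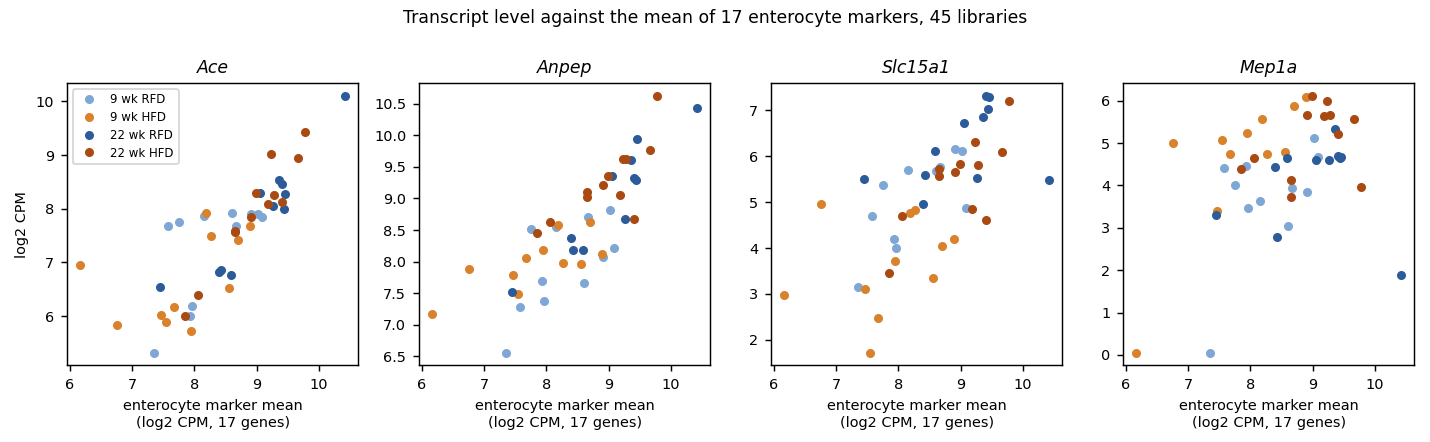
Level of Ace, Anpep, Slc15a1 and Mep1a (log2 CPM) against the mean log2 CPM of 17 enterocyte markers in the 45 libraries, coloured by group. After group means are subtracted, r is 0.936 for Ace and 0.874 for Anpep at 22 weeks and 0.537 and 0.636 at 9 weeks, where the value of Ace did not pass the adjusted threshold, and the Slc15a1 points of HFD at 9 weeks lie low on the vertical axis.

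Against the tuft marker mean, the median r of the 9 genes on log2 CPM was 0.123 at 9 weeks and -0.15 at 22 weeks. It depended on the scale at 9 weeks, since on log2(TPM + 1) it was 0.516 beside 0.33 over all genes tested, with 0.692 for Slc15a1 and 0.7 for Anpep. At 22 weeks it was 0.058 beside 0.231 on that scale. Slc15a1 at 9 weeks was the only 1 of the 9 with an adjusted p under 0.1, with r = 0.534 (rho 0.408, permutation p = 0.0129 and 0.0723, adjusted p = 0.0544 and 0.182), where 17.0% of all genes passed with r above 0. Within the series its r was -0.09, 0.764 and 0.21, and it was 0.428 without the 2 farthest libraries. At 22 weeks none of the 9 passed, where 20.6% of all genes did with r above 0.

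With the enterocyte mean as a covariate, the 9-week log2 fold change was -1.16 (SE 0.41, adjusted p = 0.0761) for Slc15a1 and 1.27 (SE 0.42, adjusted p = 0.0586) for Mep1a, and these were the 2 of the 9 genes that passed, where 14.7% of all genes did. The other 7 genes ran from -0.35 for Ace to 0.69 for Enpep, which had an adjusted p of 0.102. At 22 weeks none of the 9 passed, where 1.08% of all genes did. There Slc15a1 had -0.78 (SE 0.29, adjusted p = 0.29), Slc6a19 -0.56 (SE 0.26, adjusted p = 0.443), Mep1a 0.88 (SE 0.34, adjusted p = 0.337) and Mep1b 0.47 (SE 0.16, adjusted p = 0.218). The Slc15a1 level minus the enterocyte mean, on the log2 scale, was -3.21 (SD 0.69, n = 11) on RFD and -4.18 (SD 1.14, n = 11) on HFD at 9 weeks and -2.80 (SD 0.90, n = 11) and -3.49 (SD 0.68, n = 12) at 22 weeks. For Mep1a it was -4.58 (SD 1.14, n = 11) and -3.24 (SD 1.15, n = 11) at 9 weeks and -4.88 (SD 1.31, n = 11) and -3.92 (SD 0.84, n = 12) at 22 weeks. Several of the 17 markers differed between diets themselves, so this mean is an average of genes that went both ways, and the part of enterocyte RNA in the diet differences was not tested.

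Markers of other cell types were measured beside these results. At 9 weeks 0 of 7 goblet, 0 of 5 Paneth, 0 of 7 enteroendocrine, 0 of 6 intraepithelial T cell and 1 of 3 stem cell markers passed an adjusted p under 0.1 (edgeR), with 2, 1, 0, 1 and 1 at an unadjusted p under 0.05. Summed Paneth marker CPM ran from 55.1 over 2478 to 101300.0 on RFD and from 105 over 26570.0 to 527500.0 on HFD. At 22 weeks 3 of 7 enteroendocrine markers passed, all lower on HFD, and none of the other 4 lists had a marker that passed, with 0, 0, 1 and 1 at an unadjusted p under 0.05. Paneth marker CPM then ran from 75.4 over 1383 to 35040.0 on RFD and from 26.7 over 10240.0 to 117300.0 on HFD. The part of these cells in the levels of the 9 genes was not tested.

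Further genes of peptide digestion and amino acid transport were taken from a list of 27, of which 24 were among the genes tested, while Folh1, Tmprss15 and Slc6a14 were below the filter. At 9 weeks 1 of the 24 passed an adjusted p under 0.1 and at 22 weeks 0 did, with 3 and 4 at an unadjusted p under 0.05. Over all genes tested, 3.32% and 0.792% passed the adjusted threshold and 18.0% and 10.3% the unadjusted one. The gene that passed was Cpm, which encodes carboxypeptidase M, a membrane enzyme that removes basic residues from the carboxyl end. It ran from 15.2 over 73.8 to 140 CPM on RFD and from 7.89 over 39.0 to 60.7 CPM on HFD at 9 weeks, and all 11 HFD libraries lay below the RFD median. The fitted difference was -1.05 (SE 0.33, adjusted p = 0.0983) at 9 weeks and -0.15 (SE 0.30, adjusted p = 0.911) at 22 weeks. With the tuft marker mean as a covariate it was -0.39 (SE 0.28, adjusted p = 0.795) at 9 weeks, and it did not pass in several of the other settings.

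Of the 7 other brush border peptidases tested, Cpm was the 1 that passed at 9 weeks and none passed at 22 weeks. None of the 5 apical and 6 basolateral amino acid transporters tested passed at either time. Slc7a9, the light chain of the apical carrier of cystine and basic amino acids, was the most abundant apical one, with log2 fold changes of -0.52 (SE 0.27, adjusted p = 0.316) and -0.03 (SE 0.21, adjusted p = 0.979). Slc3a2, the heavy chain of several basolateral exchangers, had 0.19 (SE 0.19, adjusted p = 0.643) and -0.08 (SE 0.16, adjusted p = 0.908). None of the 4 cytosolic peptidases passed, and Pepd, which cuts before proline in short peptides within the cell, had -0.05 (SE 0.23) and -0.15 (SE 0.26). Of the proton exchanger Slc9a3, which maintains the acid layer that PEPT1 uses, and the scaffold Pdzk1 neither passed, and Pdzk1, the more abundant, had -0.46 (SE 0.36, adjusted p = 0.514) and 0.01 (SE 0.29, adjusted p = 0.994). The median log2 fold change of the 24 genes was -0.08 at 9 weeks and -0.07 at 22 weeks.

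**Figure D5:**
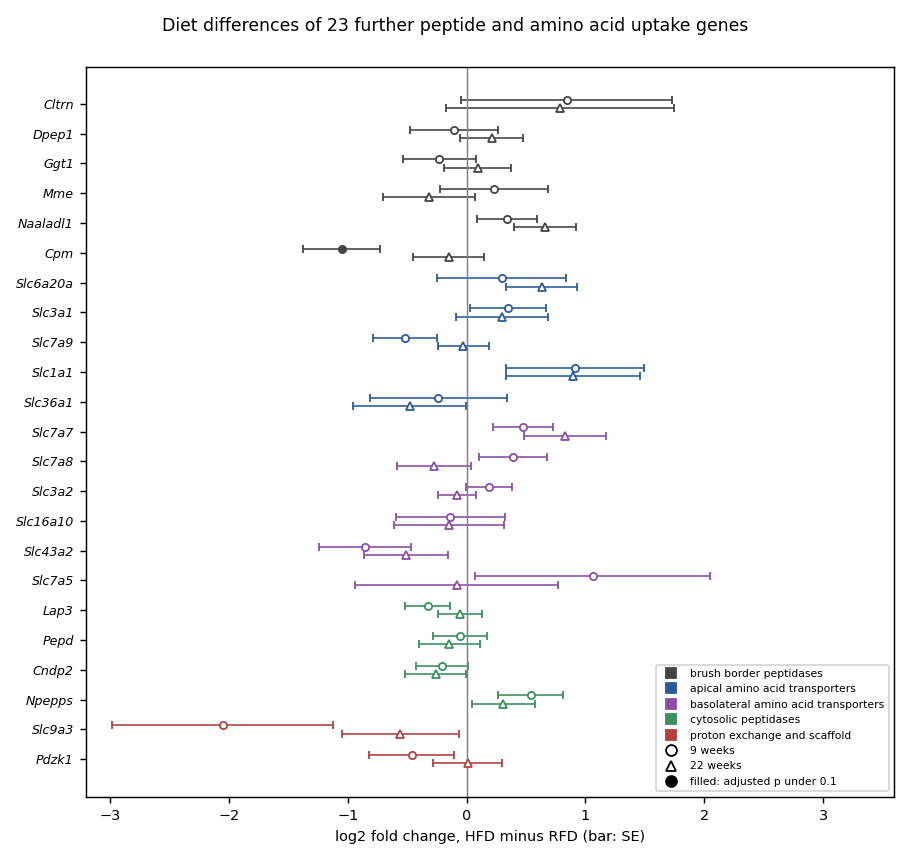
Fitted log2 fold change between HFD and RFD of 23 of the 24 further genes tested, at 9 weeks (circles) and 22 weeks (triangles), with bars of 1 SE and colours for the role of the gene. The single filled symbol is Cpm at 9 weeks, with -1.05 and an adjusted p of 0.0983.

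The genes whose levels were most like the mean of the 9, over libraries with group means subtracted and outside both lists, were Mpp1 (r = 0.85), Lct (0.843), Ces2c (0.825), Slc5a4a (0.794) and Slc51a (0.794) at 9 weeks (n = 22). At 22 weeks (n = 23) they were Guca2b (0.897), Clca4b (0.897), Asah2 (0.89), Npc1l1 (0.862) and Krt20 (0.851). Lct is lactase and 1 of the 17 enterocyte markers, and Npc1l1 is the apical carrier of cholesterol uptake. No gene was among the first 5 at both times. The r of each of the 9 genes with their own mean, which holds that gene, ran from 0.552 for Dpp4 to 0.776 for Anpep and Enpep at 9 weeks and from 0.337 for Mep1a to 0.931 for Anpep at 22 weeks.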

How the data were processed

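Bulk RNA libraries of sorted tuft cells were made with Smart-seq2 chemistry, which does not mark strand. The authors trimmed reads with Cutadapt 1.15, aligned them with STAR 2.6.0 and estimated counts with RSEM on GRCm38, and the annotation is not given in the sources used here. The deposited expected counts are not normalized, and 8.79% of values above 0 were not whole. None of those of the 9 genes was fractional. The deposited TPM are per transcript length and sum to a fixed total. FPKM columns were not used, and 24 columns of no listed sample were left out. The authors' later weighing of counts by cell type was not applied to these values. Nor was their removal of non-tuft marker genes and of genes they judged not to be expressed in tuft cells. Whether that removal took any of the 9 genes is not known here.

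Counts were rounded and normalized by TMM, and diets were compared within each set with edgeR 4.0.16 (quasi-likelihood, robust, Benjamini-Hochberg over 14020 genes, threshold 0.1). Its legacy option was set, which uses the deviances from before edgeR 4. The SE is the log2 fold change divided by the square root of F. The biological coefficient of variation was 0.794 at 9 weeks and 0.702 at 22 weeks. Symbols came from GENCODE M21, which names 47224 of 47729 identifiers, and positions from M21 on GRCm38. TPM were compared as log2(TPM + 1). Marker means are means of log2 CPM with a prior count of 2. Correlations were tested by 100000 permutations within diet. The edgeR test was tried on simulated counts with the deviances of edgeR 4. The main fit, which used the earlier deviances, was not itself tried on them.

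Other settings were DESeq2 1.42.0, RLE size factors, no filter, limma 3.58.1 on log2(TPM + 1), the number series, low totals left out, marker covariates and a joint fit. 3 more were chosen after seeing the data: no robust option, the deviances of edgeR 4, and leaving out libraries with a tuft marker mean under 5 or an enterocyte mean over 10. The 9 genes and all lists were chosen with earlier results of these data known. Named are the 9 genes, of the wider list each gene called and the most abundant of each role (1 gene is not reported here), and the 5 genes most like the 9 in each set. Each library is 1 mouse. The study housed mice together in cages and ended each period over 3 days, with 1 cage of each group per day. The labels give neither cage nor day, so the tests treat cage mates as independent.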

Additional observations from a re-analysis of the deposited data

How the results depend on the processing

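Slc15a1 kept its direction under all 12 alternatives at 9 weeks (log2 fold change from -1.57 to -0.97) and passed under 8 of them (adjusted p from 0.00949 with DESeq2 to 0.617 with the tuft marker covariate). It did not pass with limma on log2(TPM + 1) (-1.20, adjusted p = 0.284), the number series as a term (-1.26), the tuft covariate (-0.97) or without the library that stands apart (-1.37). Each of these gave 0 of the 9 genes called at 9 weeks, and the enterocyte covariate gave 2. No setting called any of the 9 at 22 weeks. Mep1a was above 0 under every setting run (0.66 to 1.27 at 9 weeks, 0.76 to 0.97 at 22 weeks). In 15 of 265 comparisons of single values a value changed sign without being called under either setting, 4 of them for Ace and 4 for Xpnpep2 at 22 weeks. Genes called at 9 weeks numbered 466, and 1534 with DESeq2, 1504 without the filter, 9 with limma, 290 without the 2 libraries under 500000 reads, 2060 with the enterocyte covariate, 18 with the tuft covariate, 1606 with the deviances of edgeR 4 and 69 without the library that stands apart. At 22 weeks they numbered 111, and 351 with DESeq2, 429 without the filter, 51 with limma, 185 with the number series, 180 with the tuft covariate, 63 in the joint fit, 226 with the deviances of edgeR 4 and 189 without the 2 libraries that stand apart. The wider list had 1 gene called at 9 weeks and 3 with the enterocyte covariate, and 0 with limma, the number series, without the low totals, with the tuft covariate, without the robust option or without the library that stands apart. At 22 weeks the enterocyte covariate gave 1. The cause of these changes was not tested. No library at 22 weeks had under 500000 reads. No paired analysis was possible because the diets compared share no mouse numbers, and the same numbers in the 2 sets are different mice. Few reads limit the precision at 9 weeks, where the HFD libraries together held 297 Slc15a1 reads, 386 Xpnpep2 reads and 549 Mep1a reads.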
